A study of Mus musculus with 6 samples.

Results

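The genes described here are 10 members of the TNF, Toll-like receptor and NF-kB pathway, measured by RNA sequencing in squamous cell carcinomas of the oesophagus, raised in C57BL/6 mice. They were taken by symbol from 41253 gene symbols in the deposited files: the cytokine Tnf, its receptor Tnfrsf1b, the Toll-like receptors Tlr2 and Tlr4 with their co-receptor Cd14, the NF-kB subunits Nfkb1, Nfkb2 and Relb, and the inhibitors Nfkbia and Tnfaip3. All 10 were present and all 10 passed the filter on low counts, among 17663 genes tested. Tumours had been induced with 4NQO, a DNA-damaging carcinogen, given in drinking water (100 mg/mL as labelled) for 16 weeks from 6 weeks of age, and the mice were killed 12 weeks after it ended, at 34 weeks, or earlier if they lost much weight. Both groups, 3 mice each, received it. The comparison was between 3 libraries labelled WT (genotype wild type) and 3 labelled Ptpro-KO. The genotype label of the latter is Ptpro-/-, which names a loss of the receptor-type tyrosine phosphatase Ptpro. How the allele was made, and which cells of the tumour it affects, is not in the labels.

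TNF is a cytokine made above all by activated macrophages, and TNFRSF1B is its receptor on leukocytes and endothelium. TLR2 and TLR4 recognise bacterial lipoproteins and lipopolysaccharide, and CD14 hands these ligands to them. Both kinds of receptor lead to NF-kB, a family of dimeric transcription factors held in the cytoplasm by IkB proteins. In the canonical branch the IkB kinase marks the Nfkbia product for destruction and frees dimers that contain the Nfkb1 product. In the slower non-canonical branch the Nfkb2 precursor is processed and acts with the Relb product. Nfkbia and Tnfaip3 are themselves NF-kB targets and encode brakes on the pathway, an IkB protein and a ubiquitin-editing enzyme. Squamous epithelium, as well as leukocytes, expresses several of these genes.

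NF-kB dimers bind a decamer known as the kappa-B consensus, and its matches in the promoters are shown because several of the genes are known targets of the factor that other members encode. RefSeq promoter windows (GRCm38.p6, 250 bases before to 50 after a start site) were given for 6 of the 10 genes, in 9 windows. Searched on both strands, with a palindromic match counted 1 time, the consensus occurred in windows of 4 of the 6: Nfkbia, Tnfaip3, Nfkb2 and Tlr2. It occurred in 1907 of all 32851 windows (5.80%). That share counts windows, while 4 of the 6 counts genes, some with several windows, so the figures are not directly comparable. No match was found within the windows of Tnf and Tnfrsf1b. Tlr4, Cd14, Relb and Nfkb1 have no entry in the table. The 30 bases around a match follow, 5′ to 3′ on the strand of the gene, with the decamer in capitals.

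Nfkbia: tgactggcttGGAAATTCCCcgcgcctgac

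Tnfaip3: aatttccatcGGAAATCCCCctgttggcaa

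Nfkb2: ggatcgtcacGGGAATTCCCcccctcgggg

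Nfkb2, next match: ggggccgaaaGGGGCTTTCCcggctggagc

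Tlr2: aggacacctgGGGAATTCCCacacggagcc

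The Nfkbia stretch lies at chr12:55492657-55492686 (minus strand), and its decamer starts 29 bases before the start site. The Tnfaip3 stretch lies at chr10:19015403-19015432 (minus strand), and its decamer starts 12 bases before a RefSeq start site. It lies inside the gene as GENCODE M21 places it (5′ end at 19015657), and another RefSeq window of Tnfaip3 held no match. The pair shown for Nfkb2, at chr19:46304688-46304717 and chr19:46304716-46304745 (plus strand), start 39 and 11 bases before the RefSeq start of one of its transcripts, in a stretch that GENCODE M21 annotates as exonic. A further Nfkb2 match, GGGACTTTCC at chr19:46305705-46305714, lay in the windows of the 2 other start sites of the gene and is also exonic. The sites in Nfkbia, Tnfaip3 and Tlr2 are in no annotated exon. The Tlr2 stretch lies at chr3:83841761-83841790 (minus strand), and its decamer starts 172 bases before the RefSeq start. GENCODE M21 places the 5′ end of Tlr2 further upstream, at 83841767, so the decamer lies just outside the gene. Nfkb2 and Tlr2 held the identical palindromic decamer GGGAATTCCC, which 13 of all windows (0.040%) contained. The whole upstream window of Nfkbia, the one gene of the 10 with a negative fold change, is given for context (chr12:55492648-55492897, minus strand, match in capitals).

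Nfkbia upstream: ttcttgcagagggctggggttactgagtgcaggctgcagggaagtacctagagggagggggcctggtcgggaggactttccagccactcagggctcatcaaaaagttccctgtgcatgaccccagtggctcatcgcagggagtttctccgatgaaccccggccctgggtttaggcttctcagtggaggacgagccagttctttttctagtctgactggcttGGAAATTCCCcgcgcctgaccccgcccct

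A match of letters describes the sequence and is not evidence of binding in these tumours. The 4 genes with a match did not share a direction: the log2 fold change was negative in Nfkbia and positive in Tnfaip3, Nfkb2 and Tlr2.

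Library totals ran from 25745240 to 39827467 reads. Ptpro itself went against the labels, with 174, 9 and 67 reads under WT and 1094, 1824 and 1921 under Ptpro-KO (log2 fold change 3.97). The genotype of each group rests on its label alone, so every direction below is between libraries as labelled. All 10 squamous epithelium markers, such as Krt5 and Krt14, were detected in every library. Their summed level was 46380 to 54830 CPM under the label WT (CPM, counts scaled to a common library size). Under Ptpro-KO it was 16230 to 23030 CPM. By edgeR 5 of the 10 fell, where 2.29% of all genes did. Ivl went the other way, at 3.8, 6.7 and 5.4 CPM against 15.2, 2.8 and 14.65 CPM (log2 fold change 1.04). Krt4 overlapped between labels. The 8 skeletal muscle markers summed to between 55.7 and 12720 CPM over the 6 libraries, with WT replicate 2 and Ptpro-KO replicate 3 lowest. Summed markers of simple and gastric epithelium (10 genes) were 6.47, 6.89 and 3.35 CPM under the label WT. Under Ptpro-KO they were 579, 921.9 and 16700 CPM, so the groups did not overlap. In Ptpro-KO replicates 1 and 2 most of the sum was Krt8, Krt18 and Krt19, with Krt18 at 218 and 177 CPM. Gastric genes were high in Ptpro-KO replicate 3 alone. Under that label Pgc stood at 3.49, 1.38 and 6209 CPM, and Tff1 at 9.13, 0.61 and 2797 CPM. Of 9 tested, 4 rose by edgeR (Krt8, Krt18, Krt19 and Aqp5), where 1.81% of all genes did.

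None of the 10 genes passed edgeR's quasi-likelihood test at an adjusted p of 0.05, where 4.10% of all tested genes did. Of the 10, 9 had a positive log2 fold change and 1, Nfkbia, a negative one. The median log2 fold change of the 10 was 0.80, beside 0.03 over all genes tested. At an unadjusted p under 0.05, 6 of the 10 differed (25.0% of all genes), 5 of them higher (13.7%) and 1 lower (11.3%) under the label Ptpro-KO. The groups did not overlap in 4 of the 10, Tnfrsf1b, Relb, Tlr4 and Cd14, each higher under the label Ptpro-KO. Over all genes 16.8% were separated in that direction and 32.5% in either. DESeq2 called the same 4 genes, all higher, where it called 17.9% of all genes and 9.52% as higher. limma-voom called 0 of the 10 and 3.79% of all genes. Its unadjusted p was under 0.05 for 6 of the 10, beside 4232 of all 17663 genes. In bulk tumour RNA, more cells of a type and more RNA per cell cannot be told apart, which holds for every gene below.

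**Figure D1:**
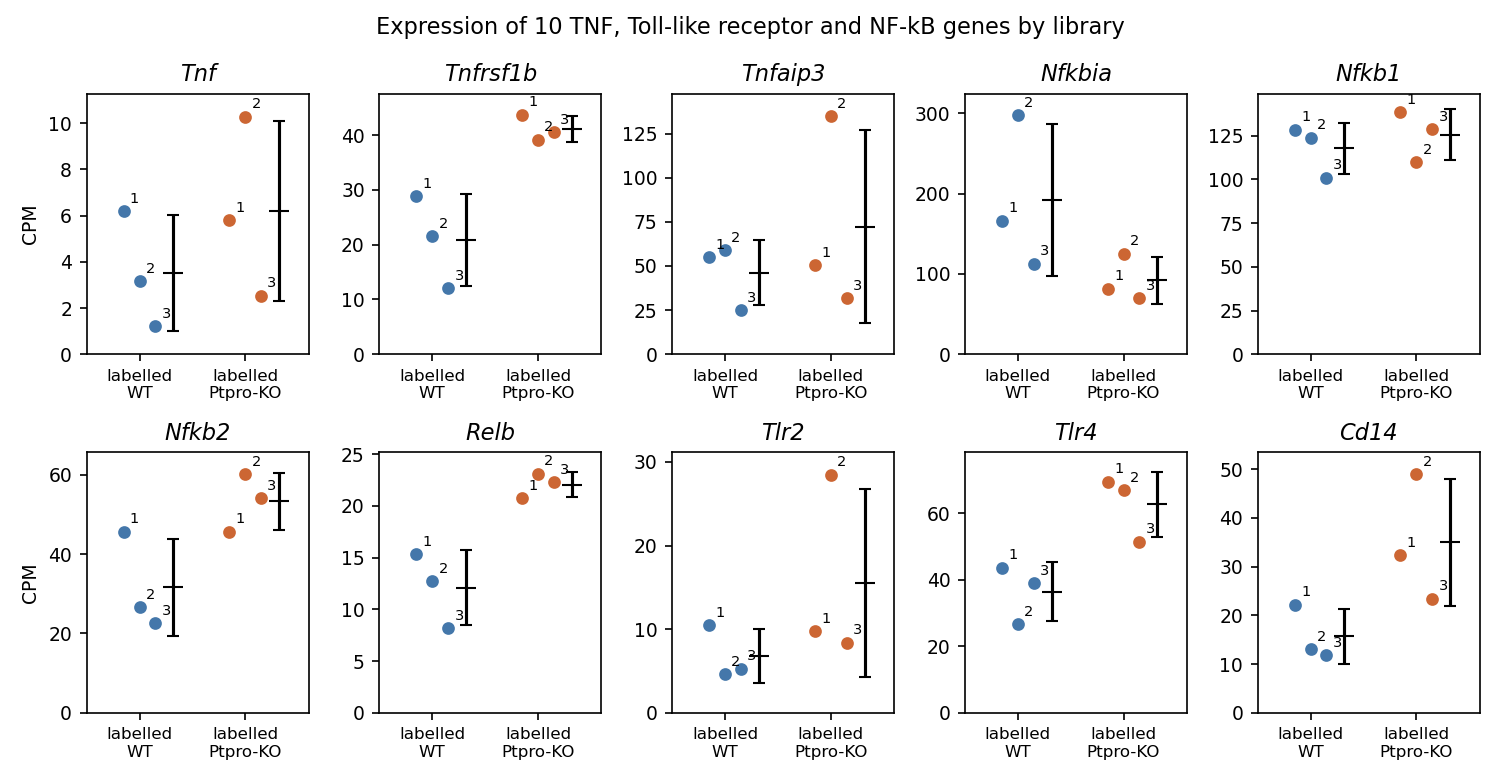
CPM of the 10 genes in the 3 libraries labelled WT (blue) and the 3 labelled Ptpro-KO (orange), numbered by replicate, on linear axes from 0; the bar is the mean ± SD of 3 libraries. Tnfrsf1b, Relb, Tlr4 and Cd14 show separated groups, and Tnf, Tnfaip3 and Tlr2 are widest within the label Ptpro-KO, where replicate 2 is highest.

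Tnf, the ligand, was a rare transcript whose spread within each label was as wide as its difference between labels. The gene lies on chromosome 17 from 35199381 to 35202007 (GRCm38, minus strand). Under the label WT it stood at 6.21, 3.15 and 1.21 CPM (214, 79 and 34 reads), and under Ptpro-KO at 5.81, 10.3 and 2.53 CPM (210, 438 and 96 reads). The groups overlapped: WT replicate 1 was above 2 of the libraries labelled Ptpro-KO. The highest library was 5.13 times the lowest under the label WT and 4.06 times under Ptpro-KO. Means were 3.52 ± 2.52 and 6.21 ± 3.89 CPM (SD, n = 3 each), and the log2 fold change was 0.81 (SE 0.72, 95% interval -0.96 to 2.59, edgeR adjusted p = 0.533). Without Ptpro-KO replicate 2 the fold change was 0.24.

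Tnfrsf1b, the TNF receptor of leukocytes and endothelium, had separated groups. It lies on chromosome 4 from 145213463 to 145246870. Its values were 28.8, 21.6 and 12.1 CPM under the label WT and 43.8, 39.2 and 40.5 CPM under Ptpro-KO. The libraries labelled Ptpro-KO lay close together, with a coefficient of variation of 5.72%, against 40.4% for those labelled WT. The log2 fold change was 0.98 (SE 0.31, 95% interval 0.23 to 1.74), or 1.98-fold, with an edgeR adjusted p of 0.125 and a DESeq2 adjusted p of 0.0285. With 3 libraries against 3, an exact permutation test (two-sided, on log2 CPM) cannot go below p = 0.1, the value it gave for Tnfrsf1b, Relb, Tlr4 and Cd14.

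Tlr2 was wide within a label in the same way as Tnf. The gene, a receptor for bacterial lipoproteins, lies on chromosome 3 from 83836272 to 83841767. It stood at 10.4, 4.62 and 5.27 CPM under the label WT and at 9.77, 28.5 and 8.38 CPM under Ptpro-KO. Ptpro-KO replicate 2 stood far above every other library, and the remaining 2 labelled Ptpro-KO were both below WT replicate 1. The log2 fold change was 1.20 (SE 0.58, 95% interval -0.23 to 2.62, edgeR adjusted p = 0.271), and 0.41 without Ptpro-KO replicate 2.

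Tlr4, the receptor for lipopolysaccharide, differed more evenly. It lies on chromosome 4 from 66827584 to 66930284 (plus strand), and its values were 43.7, 26.6 and 38.9 CPM against 69.5, 67.0 and 51.5 CPM. Every library labelled Ptpro-KO was above every library labelled WT. The fold change was 1.72, a log2 value of 0.78 (SE 0.22, 95% interval 0.25 to 1.32), with adjusted p of 0.102 by edgeR and 0.0157 by DESeq2. Of the 10 genes it had the smallest edgeR p.

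Cd14, whose product passes ligands to both Toll-like receptors, also separated the labels. It lies on chromosome 18 from 36725067 to 36726798. It stood at 22.2, 13.0 and 11.8 CPM against 32.4, 49.0 and 23.4 CPM. The margin was narrow: the lowest library labelled Ptpro-KO, replicate 3, was at 23.4 CPM and the highest labelled WT, replicate 1, at 22.2. Means were 15.7 ± 5.70 and 34.9 ± 13.0 CPM (SD, n = 3 each), and the log2 fold change was 1.16 (SE 0.36, 95% interval 0.27 to 2.04). The adjusted p was 0.125 by edgeR and 0.0219 by DESeq2.

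Among the NF-kB subunits, the 2 non-canonical genes had larger fold changes than Nfkb1, a difference between genes that was not tested. Nfkb1, on chromosome 3 from 135584655 to 135691547, encodes the canonical precursor. Its level was 128.5, 123.8 and 100.9 CPM under the label WT and 138, 110 and 129 CPM under Ptpro-KO. This was the smallest spread within a label among the 10 genes for the label WT, with a coefficient of variation of 12.5%, and the log2 fold change was 0.09 (SE 0.14, 95% interval -0.25 to 0.44, edgeR adjusted p = 0.730). Its sign turned when WT replicate 3 or Ptpro-KO replicate 1 was left out (-0.01 each).

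Nfkb2, the non-canonical precursor gene on chromosome 19 from 46304320 to 46312385, stood at 45.7, 26.6 and 22.6 CPM against 45.7, 60.2 and 54.1 CPM. Only WT replicate 1 reached the level of the libraries labelled Ptpro-KO, where it was level with replicate 1. The log2 fold change was 0.75 (SE 0.29, 95% interval 0.06 to 1.45, edgeR adjusted p = 0.174, DESeq2 adjusted p = 0.0815). Psd overlaps Nfkb2 on the opposite strand, with 15 to 48 reads in the libraries labelled WT and 35 to 369 in those labelled Ptpro-KO. The sources used here do not say whether counting used strand, so reads of the overlap cannot be told apart.

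Relb, which encodes the partner of the processed Nfkb2 product, had the tightest group of the 10 genes. It lies on chromosome 7 from 19606217 to 19629438. Values were 15.4, 12.8 and 8.19 CPM under the label WT and 20.8, 23.1 and 22.3 CPM under Ptpro-KO, where the coefficient of variation was 5.46%. The fold change was 1.82, a log2 value of 0.87 (SE 0.25, 95% interval 0.27 to 1.47), with adjusted p of 0.103 by edgeR and 0.0157 by DESeq2.

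The 2 inhibitor genes had fold changes of opposite sign, and neither passed the edgeR test. Nfkbia, which encodes IkB-alpha and lies on chromosome 12 from 55489410 to 55492647, stood at 166, 297 and 113 CPM under the label WT and at 81.8, 125 and 69.8 CPM under Ptpro-KO. The groups overlapped only through Ptpro-KO replicate 2, which was above WT replicate 3. Means were 192 ± 95.04 and 92.3 ± 29.1 CPM (SD, n = 3 each), and the log2 fold change was -1.06 (SE 0.41, 95% interval -2.05 to -0.06), with adjusted p of 0.179 by edgeR and 0.0573 by DESeq2. WT replicate 2 held the highest value, and without it the log2 fold change was -0.60.

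Tnfaip3, the ubiquitin-editing enzyme gene on chromosome 10 from 19000910 to 19015657, stood at 54.9, 58.9 and 25.1 CPM against 50.4, 134.8 and 31.9 CPM. Again Ptpro-KO replicate 2 stood above every other library. The remaining 2 libraries labelled Ptpro-KO lay within the range of those labelled WT. The log2 fold change was 0.65 (SE 0.60, 95% interval -0.82 to 2.11, edgeR adjusted p = 0.554), and it was -0.18 without Ptpro-KO replicate 2.

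**Figure D2:**
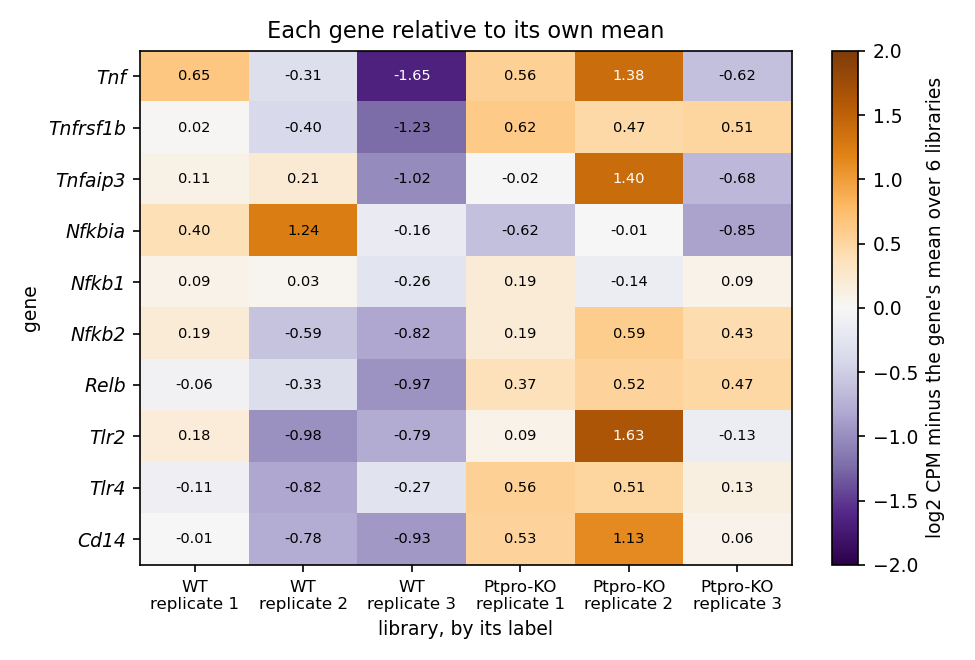
Log2 CPM of each gene in each of the 6 libraries, as the difference from that gene's mean over all 6; the colour scale and the printed values are in log2 units. Ptpro-KO replicate 2 is 1.63 above the mean for Tlr2 and 1.40 for Tnfaip3, WT replicate 3 is lowest for most genes, and WT replicate 2 is 1.24 above the mean for Nfkbia.

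The libraries ranked unevenly across the genes. Ptpro-KO replicate 2 was the highest library for 6 of the 10 genes, Tnf, Tnfaip3, Nfkb2, Relb, Tlr2 and Cd14. Ptpro-KO replicate 1 was highest for 3, Tnfrsf1b, Nfkb1 and Tlr4, and WT replicate 2 for Nfkbia. WT replicate 3 was lowest for 7. The wide range of Tnf, Tlr2 and Tnfaip3 within the label Ptpro-KO (4.06, 3.40 and 4.23 times from lowest to highest) stood beside ranges of 1.12 for Tnfrsf1b and 1.11 for Relb in those 3 libraries.

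**Figure D3:**
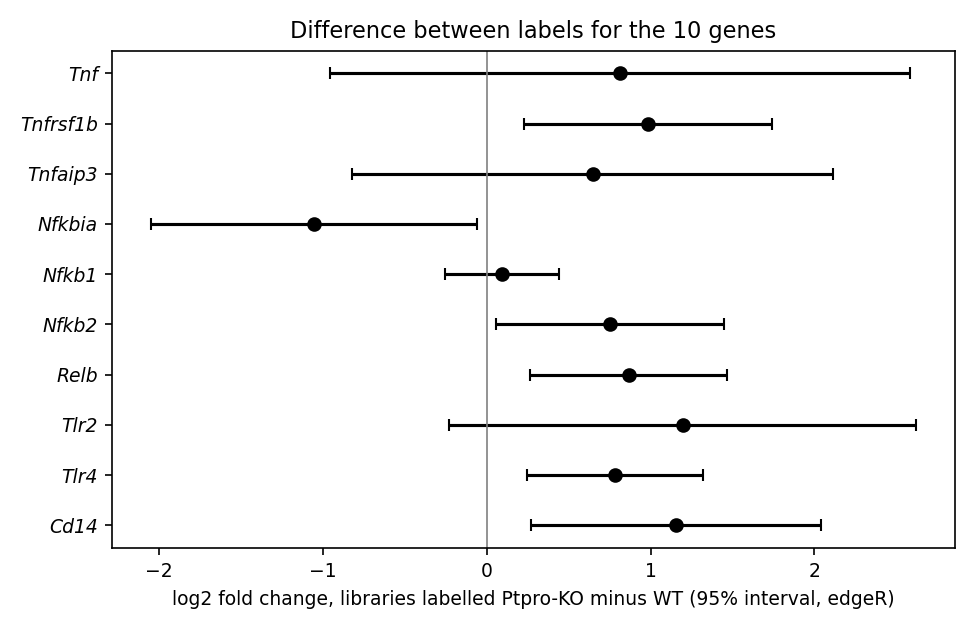
Log2 fold change (libraries labelled Ptpro-KO minus WT) of the 10 genes with its 95% interval from the edgeR fit, before adjustment for the number of genes. The intervals of Tnf, Tnfaip3, Nfkb1 and Tlr2 include 0, and that of Nfkbia lies below 0.

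Between genes, levels were compared as RPKM, the deposited measure scaled by transcript length and library total. Nfkbia was the most abundant of the 10 in all 6 libraries, at 116 ± 60.2 RPKM under the label WT and 61.5 ± 20.5 under Ptpro-KO (SD, n = 3 each). Nfkb1 came next in 5 of the 6, at 28.3 ± 3.45 and 33.3 ± 2.93 RPKM. In Ptpro-KO replicate 2 that place was taken by Tnfaip3 at 36.9 RPKM. The rarest was Tnf or Tlr2 in every library, at 2.02 ± 1.39 and 2.12 ± 0.93 RPKM under the label WT and 3.98 ± 2.56 and 5.45 ± 4.04 under Ptpro-KO. Neighbours in the order between these extremes (Cd14, Tnfaip3, Nfkb2, Tlr4, Tnfrsf1b and Relb, from 16.4 to 7.94 RPKM as means of 6 libraries) changed places between libraries. The RPKM ratio of Nfkbia to Nfkb1 was 3.24, 6.01 and 2.81 under the label WT and 1.49, 2.84 and 1.36 under Ptpro-KO. These ratios overlapped through Ptpro-KO replicate 2 and WT replicate 3.

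Reads of each gene fell mainly on 1 transcript. That transcript took all reads of Tnf, Tnfrsf1b, Nfkbia, Tlr2 and Cd14, 99.1% for Nfkb2, 99.2% for Tlr4 and 96.3% for Nfkb1, but 89.5% for Tnfaip3 and 88.1% for Relb. Much of the remainder of Tnfaip3 and Relb was listed under transcripts annotated as retaining an intron. Their share of Tnfaip3 reads was 8.09%, 8.06% and 8.51% under the label WT and 9.45%, 9.92% and 9.26% under Ptpro-KO, with no overlap between labels. For Relb it was 7.17%, 9.38% and 6.09% against 8.13%, 11.97% and 7.21%, with overlap. For Nfkb1 it was 3.70%, 3.93% and 2.89% against 3.24%, 3.80% and 2.75%, also with overlap. The share of all genes separated on this measure was not computed. The sources used here do not say how reads shared by isoforms were treated.

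The wider pathway was read from 7 lists of 135 other genes, of which 130 were tested. Of these, 5 passed the edgeR test, 4 higher (1.81% of all genes were called higher) and 1 lower (2.29%). At an unadjusted p under 0.05, 42 of the 130 differed (25.0% of all genes), 35 of them higher (13.7%). DESeq2 called 32 of the 130 (17.9% of all genes), 29 of them higher (9.52%). These shares over all genes apply to the counts of each list below. The edgeR calls depended on which libraries were included. With WT replicate 2 left out, 0 pathway genes passed, and 30 of 132 had an unadjusted p under 0.05. In that fit 3369 of all 18353 genes had such a p. Dropping WT replicate 3 also gave 0 calls, with 28 of 132 pathway genes and 3078 of all 18323 at that p. Dropping Ptpro-KO replicate 2 gave 0 as well, with 38 of 130 and 4363 of all 18155. Without WT replicate 1 the pathway genes passing were 3, 2 of them among the original 5, and without Ptpro-KO replicate 1 there was 1, Tnfsf11. Without Ptpro-KO replicate 3 there were again 5, of which 3 were among the original ones. Leaving out those libraries took the calls over all genes from 725 to 0, 0, 0, 132, 93 and 496, in the same order.

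TNF superfamily ligands had the largest median of the lists. Of 16 ligands 12 were tested, 2 rose and 0 fell, all 12 fold changes were positive and the median log2 value was 1.40. Tnfsf11, Tnfsf18 and Tnfsf4 passed the filter on low counts only through the libraries labelled Ptpro-KO. Tnfsf18, for example, had 12, 2 and 2 reads against 46, 76 and 52. Their positive sign was thus set by the filter, and the median includes them. Of the ligands not tested, Cd40lg had 6, 1 and 1 reads against 3, 0 and 1, while Lta, Fasl and Cd70 had more under Ptpro-KO. At an unadjusted p under 0.05, 7 differed, all higher, and DESeq2 called 4, all higher. Tnfsf11, the osteoclast factor RANKL, stood at 0.290, 0.199 and 0.285 CPM against 3.13, 3.00 and 3.19 CPM, on 5 to 10 reads and 113 to 128 reads a library (log2 fold change 3.56, SE 0.26, edgeR adjusted p = 0.0125). Tnfsf14, the T cell costimulator LIGHT, stood at 0.638, 0.478 and 0.356 CPM against 3.07, 4.74 and 1.85 CPM (log2 fold change 2.70, SE 0.45, edgeR adjusted p = 0.0390). By mean RPKM over the 6 libraries, the measure used for the most abundant gene of each list, the leading ligand was Tnfsf13, the B cell factor APRIL, at 1.75 ± 0.78 and 4.18 ± 0.74 RPKM (SD, n = 3 each), which led in 4 of the 6 libraries. Its log2 fold change was 1.10 (edgeR adjusted p = 0.149), and it shares its locus with Tnfsf12, so how reads were split between them is uncertain.

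Of 22 TNF superfamily receptors 0 passed the edgeR test, 8 had an unadjusted p under 0.05 (7 higher) and DESeq2 called 6, all higher, where the shares over all genes were 25.0%, 13.7%, 17.9% and 9.52% higher. The median log2 fold change was 0.37. Tnfrsf12a, the receptor of the cytokine TWEAK, had the smallest p and the highest mean RPKM, though Tnfrsf1a, the main TNF receptor, was above it in WT replicates 2 and 3. Tnfrsf12a stood at 44.7, 39.3 and 26.8 CPM against 90.3, 68.0 and 60.1 CPM (log2 fold change 0.98, SE 0.24, edgeR adjusted p = 0.0810). Tnfrsf13b, the B cell receptor TACI, had a log2 fold change of 2.18 (edgeR adjusted p = 0.0833) on 10 to 55 reads in the libraries labelled WT. In the receptor complex and cell death list the median was 0.13, and 0 of 25 passed the edgeR test, 2 had an unadjusted p under 0.05 and DESeq2 called 2. These 2 were Tab1, an activator of the kinase TAK1 (log2 fold change 0.61, edgeR adjusted p = 0.0610), and Tnip3, a partner of the Tnfaip3 product. Tnip3 stood at 2.96, 0.996 and 0.570 CPM against 17.5, 18.0 and 3.01 CPM (log2 fold change 3.08, SE 0.91, edgeR adjusted p = 0.112). Cflar, an inhibitor of caspase-8 with the highest mean RPKM of this list and the highest level in 4 of the 6 libraries, was at 30.6 ± 2.65 and 45.5 ± 7.93 RPKM (SD, n = 3 each; log2 fold change 0.35, edgeR adjusted p = 0.272).

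Among the other Toll-like receptors 9 of 10 were tested and 0 passed the edgeR test, while 4 had an unadjusted p under 0.05 and DESeq2 called 4, all higher, beside 25.0% and 17.9% of all genes (9.52% higher by DESeq2). The median log2 fold change was 1.27. Tlr13, a sensor of bacterial ribosomal RNA with the highest mean RPKM of these and the highest level in 4 of the 6 libraries, stood at 7.92, 2.99 and 4.81 CPM against 31.3, 25.4 and 14.9 CPM (log2 fold change 2.18, SE 0.45, edgeR adjusted p = 0.0568). Tlr1, the dimer partner of TLR2, had a log2 fold change of 1.75 (edgeR adjusted p = 0.106). Of 17 co-receptors and adaptors 1 rose and 0 fell, 7 had an unadjusted p under 0.05 (4 higher) and DESeq2 called 5 (4 higher). The gene that rose was Sigirr, an inhibitory receptor of the interleukin-1 and Toll-like receptor family, at 2.12, 1.55 and 2.24 CPM against 9.99, 6.36 and 9.59 CPM (log2 fold change 2.13, SE 0.28, edgeR adjusted p = 0.0253). The adaptor kinase Irak1, highest by RPKM in 5 of the 6 libraries, was at 96.6 ± 3.03 and 90.7 ± 1.36 CPM (SD, n = 3 each; log2 fold change -0.09, edgeR adjusted p = 0.530).

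Of 13 other genes for NF-kB subunits, IkB proteins and the IkB kinase, 1 rose and 0 fell, and the median was 0.06. At an unadjusted p under 0.05, 2 differed, 1 in each direction, and DESeq2 called 1. The gene that rose was Nfkbie, which encodes IkB-epsilon, an inhibitor of the same kind as the Nfkbia product. Nfkbie stood at 4.67, 2.63 and 2.71 CPM against 11.1, 11.5 and 9.41 CPM (log2 fold change 1.67, SE 0.29, edgeR adjusted p = 0.0407), beside a log2 value of -1.06 for Nfkbia. The nuclear IkB gene Nfkbiz, highest of the list by RPKM in 5 of the 6 libraries, was at 172, 178 and 105 CPM against 126, 211 and 96.4 CPM (log2 fold change -0.07, edgeR adjusted p = 0.925).

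Of 32 NF-kB target genes 0 rose and 1 fell by edgeR, with a median of 0.53. At an unadjusted p under 0.05, 12 differed, 10 of them higher, and DESeq2 called 10, 8 of them higher. The groups did not overlap in 12, 10 higher (16.8% of all genes) and 2 lower. The one that fell was Il12b, a subunit gene of interleukins 12 and 23, with 34, 15 and 21 reads under the label WT and 3, 7 and 2 under Ptpro-KO (log2 fold change -2.90, SE 0.46, edgeR adjusted p = 0.0355). Ier3, an early-response gene, had the highest mean RPKM of the list but led in only the 2 libraries numbered 2, and Tnfaip8 led in the other 4. Ier3 stood at 87.5, 213.7 and 78.4 CPM against 52.9, 125.5 and 70.3 CPM (log2 fold change -0.61, edgeR adjusted p = 0.498). As with Nfkbia, WT replicate 2 was its highest library. The Il12b call was lost with no filter on low counts and with each of the 6 libraries left out, and a filter at 1 CPM in 3 libraries removed Il12b before testing.

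**Figure D4:**
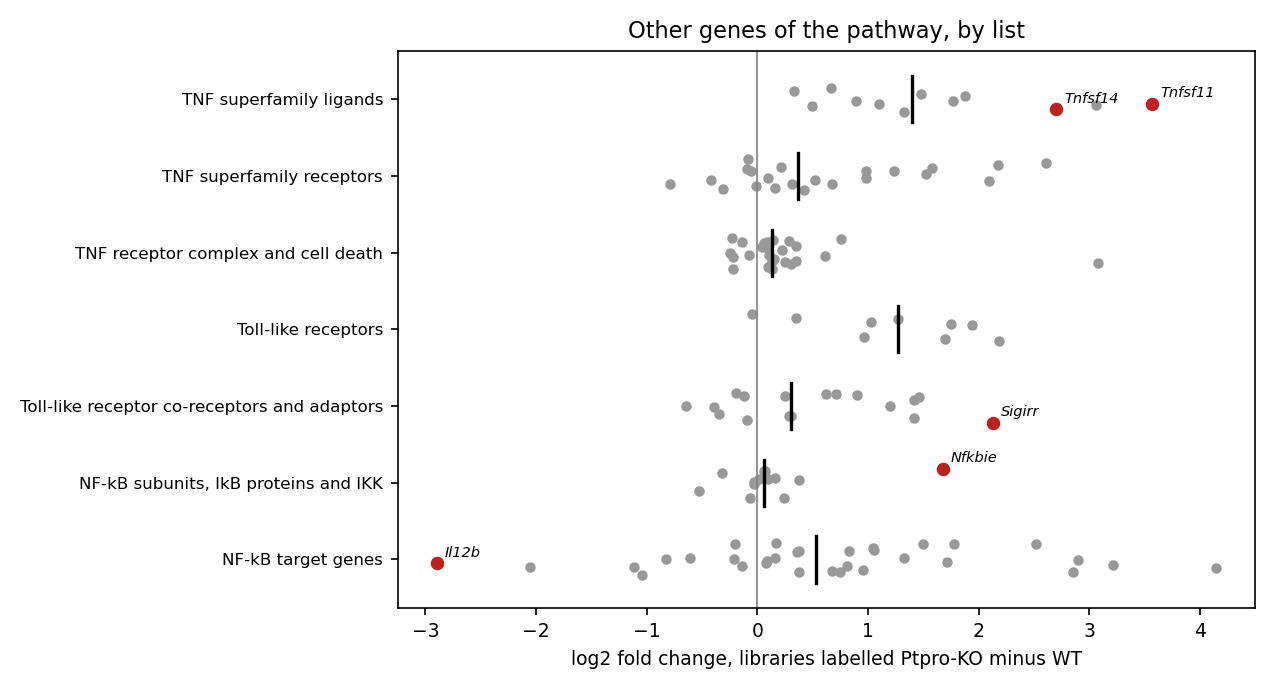
Log2 fold change (libraries labelled Ptpro-KO minus WT) of the 130 tested genes of the 7 pathway lists, with the list median as a black line; red points passed the edgeR test at an adjusted p of 0.05, grey points did not. The red points are Tnfsf11, Tnfsf14, Sigirr and Nfkbie above 0 and Il12b below 0.

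Markers of macrophages, fibroblasts and simple epithelium stood higher under the label Ptpro-KO, and most squamous markers lower. Gastric genes such as Pgc were high in Ptpro-KO replicate 3 alone. All 12 monocyte and macrophage markers had positive fold changes, with a median log2 value of 1.84, and 0 passed the edgeR test. None was at 0 in any library. Their summed level was 625, 131 and 233 CPM under the label WT and 1784, 1289 and 975 CPM under Ptpro-KO, with no overlap. Fibroblast, squamous, and simple and gastric epithelium sums did not overlap between labels either. Single macrophage markers did overlap, among them Emr1, at 24.1 CPM in WT replicate 1 and 23.2 CPM in Ptpro-KO replicate 2. Csf1r, the receptor that defines the lineage, stood at 75.6, 17.2 and 29.1 CPM against 201, 98.5 and 120 CPM. The 8 fibroblast markers summed to 485 to 2138 CPM against 3285 to 5612 CPM, and 2 of them rose (1.81% of all genes). Endothelium markers overlapped, with sums of 179 to 277 CPM against 187 to 301 CPM and a median log2 fold change of 0.24. The part of these cell types in the differences of the 10 genes was not tested.

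Neutrophil markers gave a mixed picture. The summed level of the 10 was 1956, 1723 and 863 CPM against 427, 753 and 197 CPM, most of it S100a9, which stressed keratinocytes also make. Without S100a9 the remaining 9 summed to 43.4, 37.5 and 38.0 CPM against 112, 61.2 and 57.5 CPM. Ly6g, which defines mouse neutrophils, had at most 4 reads in a library and Elane at most 4. Of the neutrophil list Retnlg rose (edgeR adjusted p = 0.0470). T and NK cell markers summed to 7.93 to 18.4 CPM against 9.43 to 19.4 CPM, with overlap. B and plasma cell markers summed to 20.1, 2.87 and 5.70 CPM against 107.7, 10.6 and 89.2 CPM, and these sums overlapped too. The dendritic cell sums, 29.3, 15.3 and 24.9 CPM against 78.6, 18.1 and 53.8 CPM, also overlapped, with 4 fold changes positive and 4 negative. In Ptpro-KO replicate 2, the library highest in Tnf, Tnfaip3 and Tlr2, the fibroblast sum (5612 CPM) and the sum of 5 thyroid markers were the highest of the 6 libraries. The thyroid sum was 781.6 CPM there and at most 26.6 elsewhere. The part of either in the high values of that library was not tested.

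**Figure D5:**
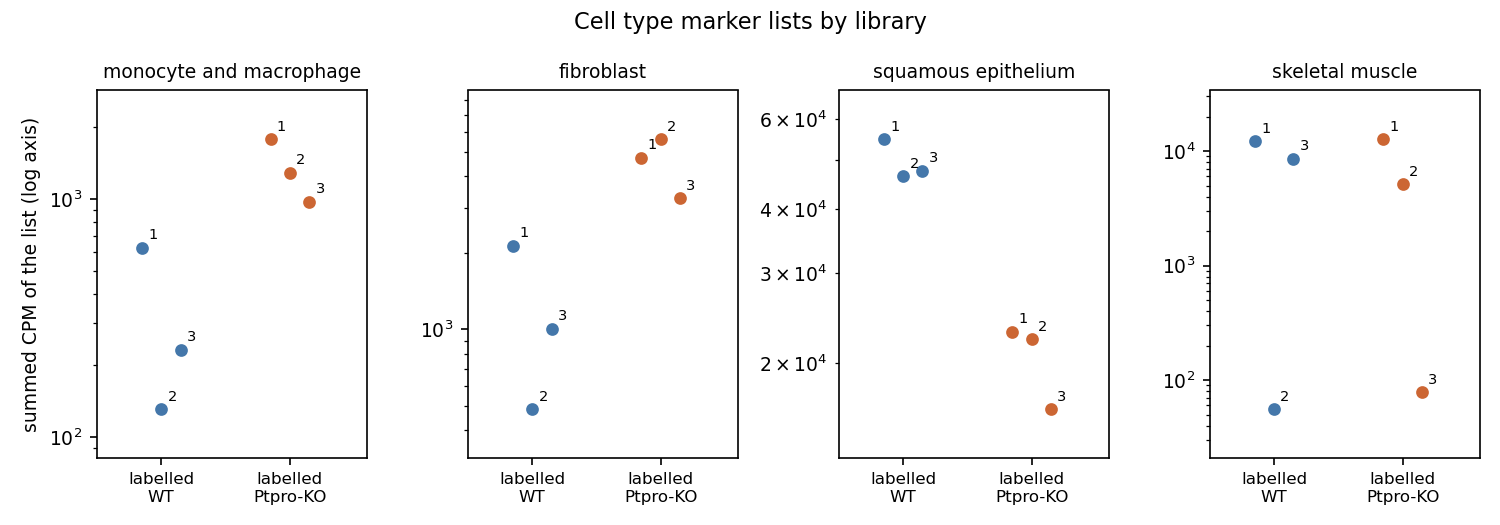
Summed CPM of 4 cell type marker lists in the 6 libraries, numbered by replicate, on log axes. Monocyte and macrophage and fibroblast sums are higher, and squamous sums lower, in all 3 libraries labelled Ptpro-KO, while skeletal muscle sums differ within each label.

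Library names in the deposited tables begin with 1 set of letters for replicate 1 of each label and with another for the 4 remaining libraries. The sources used here do not say what the letters stand for. Between the 2 replicate 1 libraries the log2 differences were -0.09 for Tnf, -0.12 for Tnfaip3, -0.10 for Tlr2 and 0.00 for Nfkb2, and 0.43 to 0.67 for Tnfrsf1b, Relb, Tlr4 and Cd14. Within the other libraries, 2 a label, they were 1.36, 0.77, 1.64 and 1.22, and 0.87 to 1.45. For Nfkbia the difference was of like size in both, at -1.02 and -0.97. With a term for the letters in the edgeR fit, 0 of the 10 genes passed and 5 had an unadjusted p under 0.05, against 0 and 6 without it. Over all 17663 genes, 724 passed with the term and 4338 had an unadjusted p under 0.05, against 725 and 4415 without it.

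Among the genes whose log2 CPM followed that of Tnf most closely over the 6 libraries were Birc3, Clec4e, Noc4l and Chic2, with Pearson correlations of 0.99, 0.99, 0.97 and 0.97, out of 12264 genes with a mean of at least 5 CPM. All share the same 6 libraries, and 61 genes had a correlation above 0.9. Birc3, which encodes an inhibitor of apoptosis bound to the TNF receptor complex, stood at 54.3, 45.3 and 34.2 CPM against 54.3, 59.9 and 44.6 CPM. Clec4e, a lectin receptor of macrophages, stood at 6.79, 5.06 and 2.46 CPM against 6.37, 11.1 and 4.43 CPM. Both were picked for their correlation with Tnf. That they share its highest library, Ptpro-KO replicate 2, and its lowest, WT replicate 3, therefore adds nothing further.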

How the data were processed

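RNA of 6 tumours was sequenced (Illumina HiSeq 2500). The design text gives 34 weeks as the age and the age label week 6. Bowtie 0.12.2 and the build mm10 are named in the submitters' processing notes, with no role given. The sources used here do not name the counter. The deposited files give raw read counts per Ensembl transcript and RPKM, which the authors computed from count, transcript length and library total, per the file headers and values. A deposited FPKM table served for alternatives; 2 of its columns were not used.

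Counts were summed per symbol (100249 transcripts, 97.2% in GENCODE M21, GRCm38). Genes passing filterByExpr (10 counts in 3 libraries, 15 in total) were scaled by TMM and tested across all genes with edgeR 4.0.16 (R 4.3.3) quasi-likelihood, Ptpro-KO minus WT, with Benjamini-Hochberg adjustment at 0.05; the standard error is the log2 fold change over the root of F. Log2 CPM has a prior count of 2. Intervals are the log2 fold change ± t (6 degrees of freedom) times the standard error. Alternatives were DESeq2 1.42.0, limma 3.58.1 (voom on counts; on FPKM as log2 with a pseudocount of 1 or 0.1), RLE and upper quartile scaling, stricter and no filters, the replicate block, each library left out, the most-read transcript, and, chosen after seeing the data, a term for library name letters. The fit was tested on simulated counts. Depth limits the precision of rare transcripts such as Tnf.

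Members and lists were chosen with earlier results of these data known. Named pathway genes were those called, otherwise the 2 with the smallest p, plus the most abundant by RPKM; genes like Tnf were the 5 with the highest correlation, of which 1 is not reported here. Named outside this rule, after their values were seen, were Psd, Tnfrsf1a, Tnfaip8, Csf2, Bcl2a1b, Zc3h12a and the marker genes.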

Additional observations from a re-analysis of the deposited data

How the results depend on the processing

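Over 17 alternatives for each of the 10 genes (170 values), 163 kept direction and side of the threshold. DESeq2 took 4 past it (Tnfrsf1b, Relb, Tlr4, Cd14). The direction turned in 3: Tnfaip3 without Ptpro-KO replicate 2, and Nfkb1 without WT replicate 3 or Ptpro-KO replicate 1. With 1 library left out, the log2 fold change ran from -0.179 to 0.999 for Tnfaip3 and from -0.014 to 0.169 for Nfkb1. The cause was not tested. Members called were 0 under all alternatives but DESeq2 (4). Genes called were 725, and 3160 by DESeq2, 237 with the replicate block and 0 to 496 with 1 library left out. Pathway genes called were 5, and 32 by DESeq2, 8 with the term for name letters and 0 to 5 with 1 library left out. Whether replicate numbers pair the libraries was not settled. Deviations of same-numbered libraries from their group mean correlated at 0.54, 0.08 and -0.24. The value for the replicate 1 libraries, whose names begin with the same letters, was the highest of all pairs. WT replicate 2 correlated best with Ptpro-KO replicate 3 (0.41). Deviations within a group of 3 are not independent, so these correlations cannot decide the question. With the replicate block 0 members and 5 pathway genes passed, but only 2 of the original 5 (Tnfsf11 and Sigirr) were among them: Tnfsf14, Nfkbie and Il12b were lost, and Csf2, Bcl2a1b and Zc3h12a passed. With the term for name letters 3 of the original 5 passed. Depth limits Tnf most, with 34 to 438 reads a library.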
